A study of Coprinopsis cinerea AmutBmut pab1-1 with 7 samples.

Results

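Litter-decomposing mushrooms open the lignin sheath around plant polysaccharides with secreted oxidative enzymes, and 4 genes of this kind were followed here in *Coprinopsis cinerea*: the class II peroxidase gene 446928 of family AA2 and the multicopper oxidase genes 208308, 409847 and 501548 of family AA1_1, among the 14242 genes of the count table. They are called by their protein IDs in the gene catalogue of the Joint Genome Institute. They were taken by these IDs because the study lists them as its lignin-modifying enzyme genes, a list it drew from genes it had called in these same libraries. Their fold changes against the wild type are therefore a description and not independent evidence of a direction.

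Family AA2 holds the secreted haem peroxidases of fungi (lignin, manganese, versatile and generic peroxidases), which use hydrogen peroxide to oxidize phenols and other aromatic substrates. AA1_1 holds the laccases, copper enzymes that oxidize phenols with oxygen and are also known from fungal pigment formation and development. Peroxidases depend on hydrogen peroxide from partner enzymes, among them the glucose-methanol-choline oxidoreductases of family AA3 and the glyoxal oxidases of family AA5_1.

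The libraries were made by Quant-Seq, a method that reads poly(A) RNA from its 3′ end, from vegetative mycelium of 3 strains: *cre1*-43 deletion mutant (2 libraries), *cre1*-91 deletion mutant (2 libraries) and the control strain, called the wild type (3 libraries). All had the AmutBmut *pab1-1* background and were grown on cellophane over YMG medium with 0.2% glucose, in the dark at 28°C for 84 h. The *cre1* gene encodes the Cre1 repressor, which holds down genes for the use of complex carbon sources while glucose is present, so the comparison asks how these genes stand in the labelled mutants on a glucose medium. Each mutant is a single transformant in which a *pab1* marker was placed at the *cre1* locus, so that the marker and the deletion cannot be told apart, and the libraries of a strain are replicate samples whose spread may be technical. The study also describes a *cre1* PCR product that persisted in both mutants. From sequenced fragments at the locus and its Quant-Seq results it nevertheless states confidence that both are deletion mutants.

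The libraries held between 6232853 and 8514379 assigned counts in the mutants and between 10196878 and 10784958 in the wild type. None of the 7 libraries was free of reads of *cre1* (466792), which had 58 and 69 counts where the label is Δ*cre1*-43, 67 and 49 where it is Δ*cre1*-91, and 94.5, 81 and 122 in the wild type. Counts of a gene include reads in 400 bp added after its coding sequence. Where in this stretch the *cre1* reads lie was not examined. Scaled for library size, *cre1* did not differ past the limits from the wild type under either label (log2 fold change -0.14, adjusted P = 0.851, and -0.33, adjusted P = 0.495, edgeR quasi-likelihood test with Benjamini-Hochberg adjustment). The mutant names below are therefore those of the labels.

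The 4 genes lie on 4 different scaffolds of the Amut1Bmut1 *pab1-1* v1.0 assembly, each on the forward strand. The peroxidase gene 446928 spans 51718 to 54091 on scaffold 43, with 15 coding exons and 363 codons. Among the laccase-family genes, 208308 spans 100009 to 102398 on scaffold 46 (8 coding exons, 518 codons), 409847 spans 3561 to 6203 on scaffold 413 (11 coding exons, 545 codons) and 501548 spans 24868 to 27992 on scaffold 225 (20 coding exons, 530 codons). Each of these spans ends with 400 bp that the authors added after the last coding base and counted with the gene.

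In the Δ*cre1*-43 libraries 3 of the 4 genes were called lower than in the wild type, against 2.16% of all genes, and in the Δ*cre1*-91 libraries all 4 were, against 3.35% of all genes. Called here means at least a 2-fold change with an adjusted P value no higher than 0.05. The peroxidase gene 446928 and the laccase-family genes 208308 and 409847 were lower under both labels, a pattern shared by 1.52% of all genes, and 501548 passed in Δ*cre1*-91 but not in Δ*cre1*-43. For 446928, 208308 and 409847 the 4 mutant libraries were all lower than the lowest wild-type library, as they were for 13.7% of all genes. The median log2 fold change of the 4 genes was -1.99 in Δ*cre1*-43 and -2.61 in Δ*cre1*-91 (-2.66 with the genes of 3 counts or fewer a library at their count ratio), beside a median of 0 over all genes in both comparisons.

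**Figure D1:**
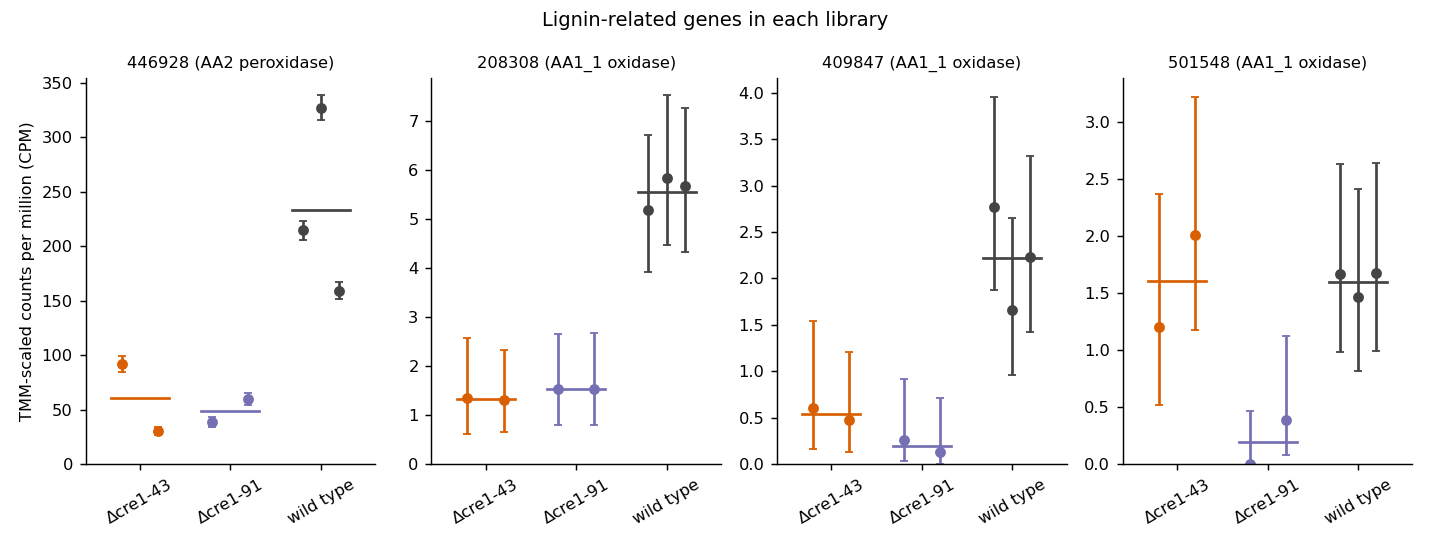
Level of each gene in each library, as counts per 1000000 of the TMM-scaled library size (CPM, y axis from 0, a scale of its own in each panel). Points are libraries, vertical bars are exact 95% Poisson intervals for counting error, and horizontal bars are strain means. For 446928 the 4 mutant libraries sit between 30.3 and 91.5 CPM, below the 3 wild-type libraries, while for 501548 the Δ*cre1*-43 libraries overlap the wild type.

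The class II peroxidase gene 446928 was the member with most reads. It had 609 and 256 counts in the Δ*cre1*-43 libraries, 303 and 465 in the Δ*cre1*-91 libraries, and 2323, 3362 and 1714 in the wild type. Scaled, these were 91.5 and 30.3 CPM in Δ*cre1*-43, 38.4 and 59.5 CPM in Δ*cre1*-91, and 215, 327 and 159 CPM in the wild type. The groups did not overlap, and the highest mutant library, Δ*cre1*-43 replicate 1, stood well above the other 3. The strain means were 60.9 ± 43.3 CPM in Δ*cre1*-43 (SD, n = 2), 49.0 ± 14.9 CPM in Δ*cre1*-91 (SD, n = 2) and 234 ± 85.8 CPM in wild-type mycelium (SD, n = 3). These means ranked above 85.1% of all genes in Δ*cre1*-43, 81.8% in Δ*cre1*-91 and 95.4% in the wild type, counted as 3′-end reads and not divided by length.

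In the edgeR fit 446928 was 3.85-fold lower in Δ*cre1*-43 than in the wild type (log2 fold change -1.95, standard error 0.36, 95% interval -2.69 to -1.20, adjusted P = 0.000787). In Δ*cre1*-91 it was 4.77-fold lower (log2 fold change -2.25, standard error 0.36, 95% interval -3.01 to -1.50, edgeR adjusted P = 0.000179). With edgeR's robust prior, which lets a gene with a large replicate spread keep it, the adjusted P values were 0.158 and 0.11 and neither call was made, and with limma voom the Δ*cre1*-43 value was 0.0531. Without Δ*cre1*-43 replicate 2 the Δ*cre1*-43 log2 fold change was -1.37 and not called (edgeR adjusted P = 0.0515), and without replicate 1 it was -2.95. Over all 18 alternative fits the adjusted P value ran from 3.7e-07 to 0.158 for Δ*cre1*-43 and from 1.89e-08 to 0.11 for Δ*cre1*-91.

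The replicates of 446928 scattered far beyond counting error. Within strains the chi-square of its counts was 943 on 4 degrees of freedom, or 236 per degree, where counting error alone gives values near 1. The standard deviation of its log2 CPM within strains was 0.71, larger than that of 98.8% of the 2586 genes with a mean of 50 CPM or more, whose median was 0.17. The highest library held 3.02 times the lowest in Δ*cre1*-43, 1.55 times in Δ*cre1*-91 and 2.06 times in the wild type.

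**Figure D2:**
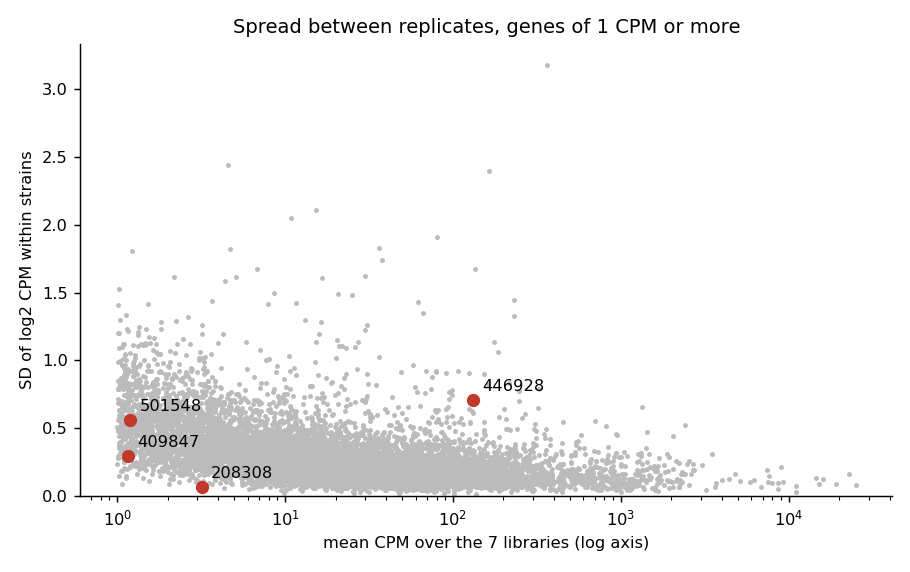
Standard deviation of log2 CPM within strains (y axis) against the mean CPM over the 7 libraries (x axis, log scale), for genes with a mean of 1 CPM or more (grey) and the 4 lignin-related genes (red). Among genes of its level 446928 lies near the upper edge at 0.71, and 208308 lies near the lower edge at 0.06.

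The 3 laccase-family genes had far fewer reads: summed over 208308, 409847 and 501548 there were 21 and 32 counts in the Δ*cre1*-43 libraries, 14 and 16 in the Δ*cre1*-91 libraries, and 104, 92 and 103.11 in the wild type. Scaled, the sums were 3.15 and 3.78 CPM in Δ*cre1*-43, 1.78 and 2.05 CPM in Δ*cre1*-91, and 9.61, 8.96 and 9.56 CPM in the wild type. The sums of the 3 strains did not overlap, which only describes genes listed from these same libraries. In every library the peroxidase gene supplied most of the counts of the 4 genes, from 88.9% to 97.3% of their summed CPM.

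The laccase-family gene 208308 gave the most even values. It had 9 and 11 counts in the Δ*cre1*-43 libraries, 12 and 12 in the Δ*cre1*-91 libraries, and 56, 60 and 61.11 in the wild type. The means were 1.33 ± 0.036 CPM in Δ*cre1*-43 (SD, n = 2), 1.53 ± 0.0095 CPM in Δ*cre1*-91 (SD, n = 2) and 5.56 ± 0.346 CPM in wild-type mycelium (SD, n = 3). All mutant libraries were close to one another and far below all wild-type libraries.

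In the edgeR fit 208308 was 4.16-fold lower in Δ*cre1*-43 (log2 fold change -2.06, standard error 0.40, 95% interval -2.92 to -1.22, adjusted P = 0.00146). In Δ*cre1*-91 it was 3.61-fold lower (log2 fold change -1.85, standard error 0.39, 95% interval -2.68 to -1.04, edgeR adjusted P = 0.00222). Both calls were made under each of the 18 alternative fits with a fold-change value, in which the log2 fold change ran from -2.28 to -2.01 for Δ*cre1*-43 and from -1.94 to -1.76 for Δ*cre1*-91. Its replicates varied less than counting error alone would give on average (chi-square of 0.117 per degree of freedom).

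The laccase-family gene 409847 had 4 and 4 counts in the Δ*cre1*-43 libraries, 2 and 1 in the Δ*cre1*-91 libraries, and 30, 17 and 24 in the wild type. No mutant library reached the lowest wild-type library, and the 3 counts of the Δ*cre1*-91 libraries are too few for a fitted fold change to be read as a size. Its mean was 0.537 ± 0.090 CPM in Δ*cre1*-43 (SD, n = 2), 0.191 ± 0.089 CPM in Δ*cre1*-91 (SD, n = 2) and 2.22 ± 0.558 CPM in wild-type mycelium (SD, n = 3).

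In Δ*cre1*-43 the edgeR log2 fold change of 409847 was -2.03 (standard error 0.67, 95% interval -3.47 to -0.66, adjusted P = 0.0436), a call near its limit. It was not made by DESeq2 (adjusted P = 0.0802), after thinning to equal depth (0.0673) or in any of the 5 edgeR fits that left out a library of Δ*cre1*-43 or of the wild type (0.0694 to 0.228). In Δ*cre1*-91 the count rate was 0.0858 of that in the wild type (exact 95% counting interval 0.0173 to 0.261), and the gene was called by edgeR (adjusted P = 0.00402). Without Δ*cre1*-91 replicate 2 that adjusted P value was 0.0507, the highest over 18 alternative fits, of which the lowest was 0.00273.

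The laccase-family gene 501548 was the exception among the 4. It had 8 and 17 counts in the Δ*cre1*-43 libraries, 0 and 3 in the Δ*cre1*-91 libraries, and 18, 15 and 18 in the wild type. The Δ*cre1*-43 libraries lay on either side of the wild type, at 1.20 and 2.01 CPM against 1.66, 1.46 and 1.67 CPM. The Δ*cre1*-91 libraries lay below all others, at 0 and 0.384 CPM, and the exact 95% upper limit for the 0 counts of Δ*cre1*-91 replicate 1 is 0.468 CPM.

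For 501548 the edgeR log2 fold change in Δ*cre1*-43 was 0.02 (standard error 0.62, 95% interval -1.28 to 1.33, adjusted P = 1), an interval that holds changes of more than 2-fold in either direction. In Δ*cre1*-91 its count rate was 0.119 of that in the wild type (exact 95% counting interval 0.0238 to 0.369, edgeR adjusted P = 0.0223). That call was not made without Δ*cre1*-91 replicate 1 (edgeR adjusted P = 0.138) or without any single wild-type library (0.0506 to 0.0679), and over all 18 alternative fits the adjusted P value ran from 0.0157 to 0.138.

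**Figure D3:**
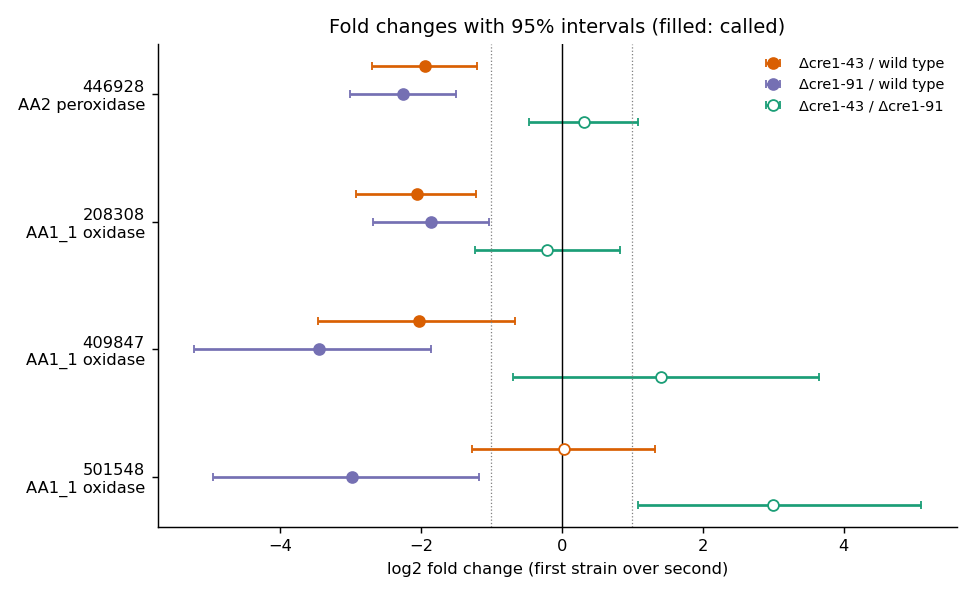
Log2 fold change (x axis) of each gene in the 2 comparisons with the wild type and in the comparison of Δ*cre1*-43 with Δ*cre1*-91, with 95% intervals from the edgeR fit. Filled points passed both limits and open points did not, and dotted lines mark a 2-fold change. All points against the wild type are negative except that of 501548 in Δ*cre1*-43 (0.02), and no point passed between the mutants. The points of 409847 and 501548 that involve Δ*cre1*-91 rest on 3 counts in that strain and depend on edgeR's prior count.

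For the 4 mutant libraries together, the mean of both strain coefficients was compared with the wild type, so the libraries were not pooled in the fit. In this comparison 3 of the 4 genes were called lower, against 2.86% of all genes. The log2 fold changes were -2.10 for 446928 (standard error 0.28, edgeR adjusted P = 1.79e-05), -1.96 for 208308 (standard error 0.31, edgeR adjusted P = 0.000127) and -2.74 for 409847 (standard error 0.57, edgeR adjusted P = 0.00143). The fitted values of 409847 and 501548 depend on the 3 counts that each had in Δ*cre1*-91. Pooled over the 4 mutant libraries, the count rate of 409847 was 0.160 of that in the wild type (exact 95% counting interval 0.0766 to 0.304). For 501548 the pooled rate was 0.568 (0.345 to 0.918), which joins a rate of 1.03 in Δ*cre1*-43 with one of 0.119 in Δ*cre1*-91. These pooled intervals cover counting error only and not the difference between the strains. The fitted log2 fold change of the remaining gene, 501548, was -1.48 (standard error 0.62, edgeR adjusted P = 0.0955), with the mutant labels on opposite sides of that average. In the fit without Δ*cre1*-91 replicate 2 its adjusted P value was 0.0276. With edgeR's robust prior 446928 was not called (adjusted P = 0.06).

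The comparison of the mutants with each other was not itself a criterion of the list, but it shares its libraries with the comparisons that were, and a gene listed for a low value in 1 mutant is favoured to differ here. None of the 4 was called in it by edgeR, against 0.246% of all genes, and none by limma voom, while at an unadjusted P value below 0.05 the edgeR count was 1. DESeq2 gave an adjusted P value only for 446928 and 208308, and neither passed. That gene was 501548 (edgeR adjusted P = 0.183; 0.123 to 0.502 over its alternatives). Its count rate in Δ*cre1*-43 was 8.66 times that in Δ*cre1*-91, with an exact 95% counting interval of 2.64 to 44.8. Both Δ*cre1*-43 libraries lay above both Δ*cre1*-91 libraries, an order whose share over all genes was not computed. Without Δ*cre1*-91 replicate 1 the ratio was 4.31 (1.31 to 22.3), and without replicate 2 the remaining Δ*cre1*-91 library had 0 counts.

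For the other genes the interval of the difference between the mutants is the more informative value. For 446928 the log2 fold change of Δ*cre1*-43 over Δ*cre1*-91 was 0.31 (95% interval -0.47 to 1.08, edgeR adjusted P = 0.865), and for 208308 it was -0.20 (95% interval -1.23 to 0.82, adjusted P = 1). As folds, these intervals ran from 0.723 to 2.12 for 446928 and from 0.426 to 1.76 for 208308. For 409847, with few counts, the count rate in Δ*cre1*-43 was 2.77 times that in Δ*cre1*-91, with an exact 95% counting interval of 0.665 to 16.2 (edgeR adjusted P = 0.668).

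Across the 7 libraries 208308 and 446928 followed each other with a Pearson r of 0.90 of log2 CPM, 208308 and 409847 with 0.90, and 446928 and 409847 with 0.83. The values for 501548 were lower, at 0.48 with 446928, 0.45 with 208308 and 0.67 with 409847. These are descriptions over 7 libraries that share the split between mutants and wild type, and several rest on a few counts a library.

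The genes with a profile most like each of the 4 were found among the 9923 genes with a mean of 1 CPM or more. A shared order of the strains follows from this choice and is no separate result. The profile of 208308 was closest to those of 222978 (r = 0.999), 439965 (0.997) and 465202 (0.996), and 213 genes reached an r of 0.95. The first of them, 222978, stood at 212 CPM in Δ*cre1*-43, 231 CPM in Δ*cre1*-91 and 515 CPM in the wild type. The profile of 409847 was closest to 547067 (r = 0.99), 373549 (0.99) and 439152 (0.99). Gene 547067 stood at 11.4 CPM in Δ*cre1*-43, 4.58 CPM in Δ*cre1*-91 and 39.6 CPM in the wild type.

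Fewer genes resembled the other members. For 446928, with its uneven replicates, 356686 (r = 0.98), 438097 (0.98) and 364198 (0.98) came first, and 38 genes reached an r of 0.95. The first, 356686, stood at 21.3 CPM in Δ*cre1*-43, 20.3 CPM in Δ*cre1*-91 and 27.7 CPM in the wild type. For 501548, 441878 (r = 0.98), 493955 (0.98) and 33597 (0.98) came first, and 19 genes reached 0.95. Gene 441878 stood at 3.29 CPM in Δ*cre1*-43, 2.42 CPM in Δ*cre1*-91 and 3.33 CPM in the wild type. In the same order 493955 stood at 28.1, 21.7 and 28.2 CPM, and 33597 at 13.9, 6.56 and 13.7 CPM. A high r describes the shape of a profile and not the size of its change. No annotation of these genes was at hand, and only part of the study's table of protein domains could be read.

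Other copper oxidase genes did not pass the limits. Of 2 further multicopper oxidase genes and 2 genes with a tyrosinase copper-binding domain (tyrosinases oxidize phenols, in melanin formation among other processes), 0 of 4 were called by edgeR in either mutant, and at an unadjusted P value below 0.05 the count was 0 in Δ*cre1*-43 and 1 in Δ*cre1*-91. Their median log2 fold change was 0.31 in Δ*cre1*-43 and 0.31 in Δ*cre1*-91, over values from -1.14 to 1.20 and from -0.84 to 1.27. The multicopper oxidase gene 368135 had 41.78 and 35.04 counts in the Δ*cre1*-43 libraries, 24.08 and 29.79 in the Δ*cre1*-91 libraries, and 37.54, 33.36 and 33.71 in the wild type, a log2 fold change of 0.65 (edgeR adjusted P = 0.243) and 0.06 (adjusted P = 1). The other one, 266892, had 4 and 2 counts in the Δ*cre1*-43 libraries, 14 and 7 in the Δ*cre1*-91 libraries, and 8, 9 and 12 in the wild type, a log2 fold change of -1.14 (edgeR adjusted P = 0.437) and 0.55 (adjusted P = 0.703). The gene below an unadjusted P value of 0.05 was the tyrosinase-domain gene 362155, at -0.84 in Δ*cre1*-91 (edgeR adjusted P = 0.111). These genes were found by their protein domains in a table of which only part could be read, so the set is not complete. The AA1 genes that the study had called are among the 4 followed here and were kept out of this set. The absence of calls in the remainder is therefore no evidence of a contrast with them.

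Among 4 other peroxidase genes, 1 was called lower in each mutant and none higher. It was 111399, a chloroperoxidase-type gene (haem-thiolate enzymes that halogenate or oxygenate organic substrates with hydrogen peroxide). It had 1169 and 1345 counts in the Δ*cre1*-43 libraries, 1188 and 996.25 in the Δ*cre1*-91 libraries, and 4208, 3780 and 3199 in the wild type. Its mutant libraries lay below all wild-type libraries, with a log2 fold change of -1.07 in Δ*cre1*-43 (standard error 0.17, edgeR adjusted P = 0.00021) and -1.34 in Δ*cre1*-91 (standard error 0.17, edgeR adjusted P = 1.6e-05).

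The other 3 did not pass. The haem peroxidase gene 358179, similar to the mitochondrial cytochrome *c* peroxidase Ccp1 of yeast, was at 0.35 in Δ*cre1*-43 and 0.45 in Δ*cre1*-91 in log2 units (edgeR adjusted P = 0.182 and 0.0639). The glutathione peroxidase gene 28769, whose enzyme class reduces peroxides inside the cell, was at -0.10 and -0.72 (edgeR adjusted P = 0.943 and 0.113). The second chloroperoxidase-type gene, 163161, had between 3 and 21 counts a library.

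Partner oxidoreductases were called in both directions on one list and not at all on the other. The first list holds genes that the study had called and the other holds genes outside it. This split of the calls therefore follows largely from how the lists were made. Of 7 partner oxidoreductase genes found by protein domain, 0 were called by edgeR in either mutant (3 in Δ*cre1*-43 and 1 in Δ*cre1*-91 at an unadjusted P value below 0.05). The glyoxal oxidase-domain gene 263775 (glyoxal oxidases release hydrogen peroxide) was at -0.10 in Δ*cre1*-43 and 0.30 in Δ*cre1*-91 in log2 units (edgeR adjusted P = 0.8 and 0.225). The glucose-methanol-choline oxidoreductase gene 362996 passed the P value limit but not the fold limit, at -0.90 in Δ*cre1*-43 and -0.94 in Δ*cre1*-91 (edgeR adjusted P = 0.000507 and 0.000272).

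Of 10 family AA3 and AA5_1 genes that the study lists as differentially expressed, 5 were called higher and 4 lower in Δ*cre1*-43, and 5 higher and 2 lower in Δ*cre1*-91. Of all genes, 4.82% were called higher in Δ*cre1*-43 and 4.97% in Δ*cre1*-91. That list, like the 4 genes themselves, was drawn from these libraries. The AA5_1 gene 456054, a glyoxal oxidase-family gene, had 11919 and 17455 counts in the Δ*cre1*-43 libraries, 18605.33 and 11929.33 in the Δ*cre1*-91 libraries, and 7146, 9994.2 and 9471 in the wild type. Its log2 fold change was 1.20 in Δ*cre1*-43 (standard error 0.17, edgeR adjusted P = 7.63e-05) and 1.21 in Δ*cre1*-91 (standard error 0.17, edgeR adjusted P = 5.29e-05). The AA3_3 gene 492531 (this subfamily holds the alcohol oxidases, which release hydrogen peroxide) was higher by 3.53 and 2.70. Genes of AA3_2 (a subfamily with aryl-alcohol oxidases and glucose oxidases) went both ways. Called higher in both mutants were 377030 (1.96 and 2.14), 522835 (1.72 and 1.58) and 544684 (2.30 and 2.73). Gene 451588 was called lower in both, at -1.50 and -1.38. Called lower only in Δ*cre1*-43 were 369851, 382020 and 499623, and only in Δ*cre1*-91 446127. The first 3 were also negative in Δ*cre1*-91, at -0.61, -1.06 and -1.14, and 446127 was at -0.73 in Δ*cre1*-43. None of them was called between the mutants (edgeR adjusted P from 0.168 to 0.693).

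Most listed genes for the breakdown of polysaccharides were higher in the mutants, again on a list drawn from these libraries. Of 15 genes of AA9, the lytic polysaccharide monooxygenases that cleave cellulose oxidatively, 14 were called higher and 1 lower in Δ*cre1*-43, and 12 higher and 0 lower in Δ*cre1*-91 (edgeR, 14 at an unadjusted P value below 0.05 in Δ*cre1*-91). Their median log2 fold change was 3.32 in Δ*cre1*-43 and 3.45 in Δ*cre1*-91. Of 63 other listed genes for plant cell wall degradation, 48 were higher and 6 lower in Δ*cre1*-43, and 44 higher and 7 lower in Δ*cre1*-91. No difference between these lists and the 4 genes was tested.

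**Figure D4:**
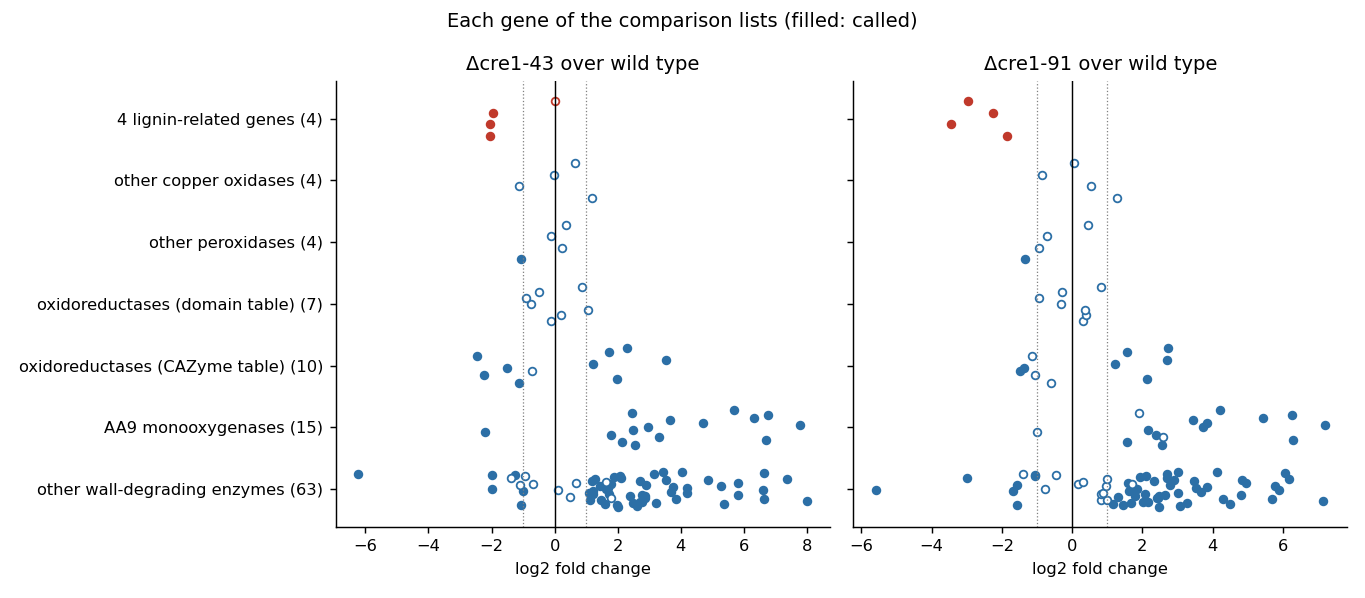
Log2 fold change over the wild type (x axis) of every gene of each list (rows, with the number of genes), in Δ*cre1*-43 (left) and Δ*cre1*-91 (right). Filled points were called by edgeR and dotted lines mark a 2-fold change. The 4 lignin-related genes (red) have medians of -1.99 and -2.61, and the AA9 genes have medians of 3.32 and 3.45.

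Gene models near the 4 genes were examined because reads at 3′ ends can fall into overlapping models. Within 10 kb there were 36 of them, of which edgeR called 3 higher and 2 lower in Δ*cre1*-43, and 3 higher and 2 lower in Δ*cre1*-91, numbers to be read beside the shares of all genes given above. The last 153 bp of the peroxidase model 446928 overlap 446929 (53939 to 55432 on scaffold 43, forward strand). That gene had 242 and 384.25 counts in the Δ*cre1*-43 libraries, 327 and 271 in the Δ*cre1*-91 libraries, and 364, 296 and 333 in the wild type, and was not called (log2 fold change 0.40 and 0.29, edgeR adjusted P = 0.162 and 0.325). Scaled, 446929 stood at 36.3 and 45.4 CPM in the Δ*cre1*-43 libraries and at 41.5 and 34.7 CPM in the Δ*cre1*-91 libraries. In the wild type it stood at 33.6, 28.8 and 30.9 CPM. The part of reads from the shared stretch in the values of either gene was not tested. Of the other models near the peroxidase gene, 364806 was higher in Δ*cre1*-43 (1.03 in log2 units, edgeR adjusted P = 0.00364) and in Δ*cre1*-91 (adjusted P = 8.42e-05), and 421013, with 1 to 23 counts a library, was called higher in Δ*cre1*-91 (2.55, adjusted P = 0.0496).

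Gene 501548 shares 464 bp at its 3′ end, including the whole 400-bp extension, with the oppositely oriented model 377557 (27529 to 29054 on scaffold 225). Model 377557 had 1021 and 1349.5 counts in the Δ*cre1*-43 libraries, 854 and 651.5 in the Δ*cre1*-91 libraries, and 672, 1043 and 655.5 in the wild type. It was called higher in Δ*cre1*-43 (log2 fold change 1.06, standard error 0.21, edgeR adjusted P = 0.00131) and not in Δ*cre1*-91 (0.36, adjusted P = 0.285). The sources do not say which strand was counted, so how reads in the shared stretch were assigned is not known. In Δ*cre1*-91 replicate 1, 501548 had 0 counts where 377557 had 854. In Δ*cre1*-43, where 377557 was called higher, 501548 was not called. The part of this far more abundant neighbour in the values of 501548 was not tested. The next model on that side, 545670, was higher in both mutants, with a log2 fold change of 2.06 in Δ*cre1*-43 and 1.94 in Δ*cre1*-91 (edgeR adjusted P = 9.99e-07 and 1.76e-06). Model 466221, 4813 bp beyond 501548, was called lower in Δ*cre1*-91 (-1.25, edgeR adjusted P = 3.07e-05) and not in Δ*cre1*-43 (-0.47, adjusted P = 0.0627).

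Near the laccase-family gene 208308 a divergently oriented neighbour was lower as well. Model 421349 (98397 to 99193 on scaffold 46, reverse strand) lies 816 bp upstream of 208308. It had 10 and 15 counts in the Δ*cre1*-43 libraries, 13 and 9 in the Δ*cre1*-91 libraries, and 118, 159 and 100 in the wild type. The mutants and the wild type did not overlap, and the log2 fold change was -2.84 in Δ*cre1*-43 (standard error 0.37, edgeR adjusted P = 2.35e-05) and -3.07 in Δ*cre1*-91 (standard error 0.38, edgeR adjusted P = 8.83e-06). No annotation of this model was at hand, and only part of the table of protein domains could be read. On the other side 365191 starts 94 bp after 208308 and was not called, at 0.04 and -0.31 in log2 units (edgeR adjusted P = 1 and 0.295).

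Near 409847 the AA3_2 gene 382020 (11226 to 12374 on scaffold 413, reverse strand) lies 5023 bp beyond the laccase-family gene. It had 1 and 5 counts in the Δ*cre1*-43 libraries, 6 and 8 in the Δ*cre1*-91 libraries, and 22, 12 and 26 in the wild type. It was called lower in Δ*cre1*-43 (log2 fold change -2.23, standard error 0.76, edgeR adjusted P = 0.0493), and in Δ*cre1*-91 the value of -1.06 did not pass (adjusted P = 0.312). The 2 models between them were not called.

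**Figure D5:**
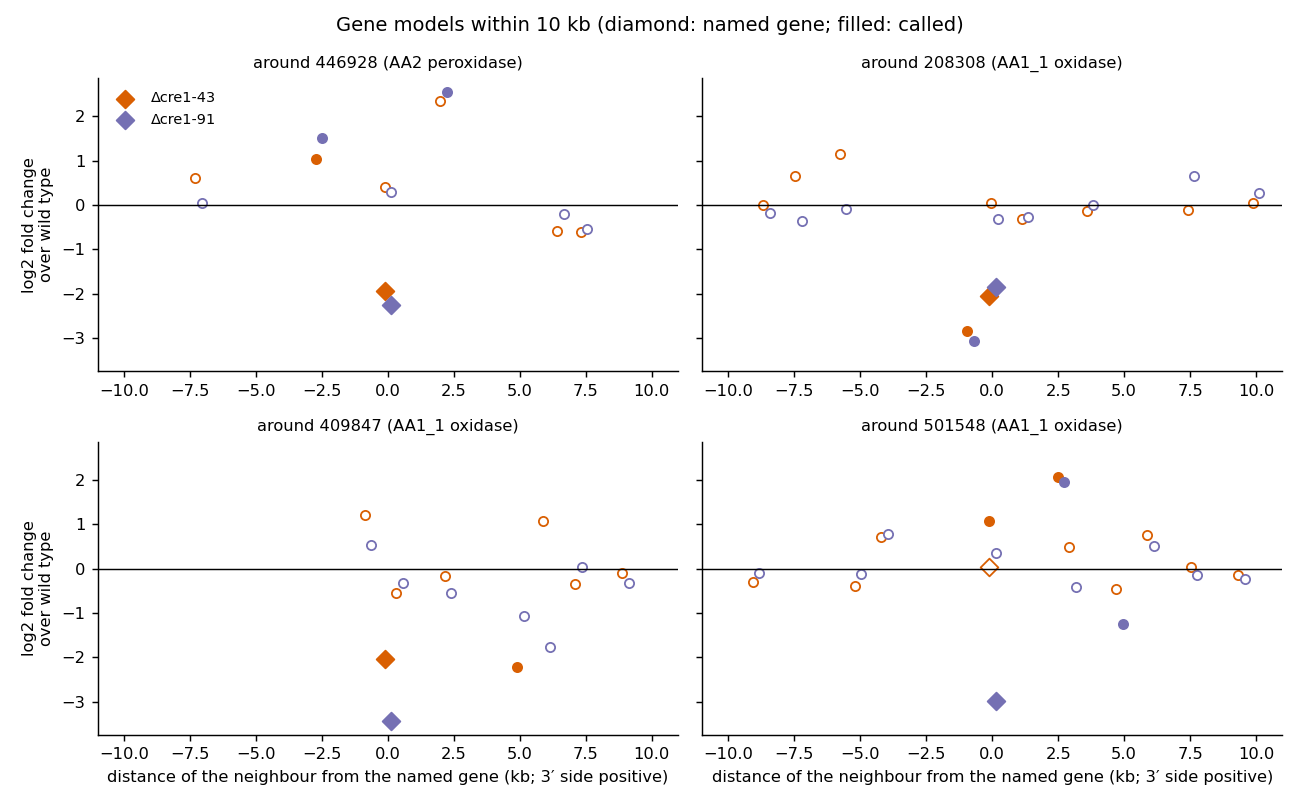
Log2 fold change over the wild type (y axis) of the gene models within 10 kb of each lignin-related gene that had at least 10 counts in all, by their distance (x axis, kb, 3′ side positive, overlapping models at 0). Diamonds are the named genes, filled symbols were called by edgeR, and colours are the mutant labels. Beside 208308 the model 816 bp upstream is at -2.84 and -3.07, and most other neighbours lie near 0.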

How the data were processed

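The values deposited per gene are estimated counts. The authors mapped the reads with STAR 2.6.1a and counted them with featureCounts over coding sequences, extended at the 3′ end by 400 bp; 20.3% of its values are not whole, and how reads of several places or models were shared is not stated. The authors also deposited a scaled signal table, equal to these counts divided by TMM-scaled library sizes, which served only as a check. Gene positions come from the deposited models, counted from 1. Counts were rounded to whole numbers, and a single model of all 14242 genes and 7 libraries had strain as its factor (R 4.3.3, edgeR 4.0.16, TMM, no filter, glmQLFit and glmQLFTest, tested on simulated data). The Benjamini-Hochberg adjustment covered all genes. CPM are rounded counts per 1000000 of the TMM-scaled library. Intervals of levels and count ratios are exact at 95% and cover counting error only. In the text a count ratio replaces the fitted fold change of a gene where a group had 3 counts or fewer in every library.

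Named are the 4 genes, some members of the small enzyme lists, and overlapping or called models within 10 kb. Also named are the 3 genes with the highest Pearson r for each of the 4 (log2 CPM, prior count 2). Model 365191 was chosen after its values were seen. The members and lists were chosen with earlier results of these data known. Alternatives were limma 3.58.1 voom, DESeq2 1.42.0, other scalings, filterByExpr, fits of only the groups compared, a robust prior, unrounded counts, thinning, no fold limit, the replicate number as a block and leaving out each library. Columns of the paper's own comparisons were not used.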

Additional observations from a re-analysis of the deposited data

How the results depend on the processing

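Among the called members, 208308 kept its calls under all 18 alternatives in both mutants. The call of 446928 was made under 15 of 18 in Δ*cre1*-43 and 17 of 18 in Δ*cre1*-91, that of 409847 under 10 and 17 of 18, and that of 501548 in Δ*cre1*-91 under 13 of 18. The range of the number of called members over the 7 fits that each left out a library was 1 to 3 for Δ*cre1*-43 against the wild type (3 reported; 1 without Δ*cre1*-43 replicate 2, where 208308 alone was called), 3 to 4 for Δ*cre1*-91 (4 reported), 3 to 4 for the 4 mutant libraries together (3 reported) and 0 to 0 between the mutants. Of 282 alternative log2 fold changes with an adjusted P value, 258 kept their direction and their side of the limits, 19 lost a call, 1 gained one and 4 changed sign. The sign changes were all in values that had not been called: 501548 in Δ*cre1*-43 was at -0.022 with the replicate block, at -0.42 without Δ*cre1*-43 replicate 2 and at -0.038 without wild type replicate 2 (range -0.42 to 0.33 over the 7 fits), and 446928 in Δ*cre1*-43 over Δ*cre1*-91 was at -0.69 without Δ*cre1*-43 replicate 1 (range -0.69 to 0.89). With libraries left out, fewer samples enter the fit, and the fold changes moved as well. The cause of the lost calls was not tested. Scaling by library size only moved the median log2 fold change of genes with at least 1 CPM to 0.12 between the mutants and changed no call among the 4 genes. The sets of most similar genes shared 1 of 3 genes with the reported set for 409847 at a prior count of 0.5, and at least 2 of 3 otherwise.

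Deviations of samples with the same replicate number correlated weakly and with mixed sign (r = -0.16 between the mutants, 0.11 and 0.13 between Δ*cre1*-43 and the wild type, -0.029 and -0.020 between Δ*cre1*-91 and the wild type), so the numbers are not taken as pairs. With the replicate number as a block 2, 3, 3 and 0 members were called in the order of comparisons above, without 409847 in Δ*cre1*-43 (edgeR adjusted P = 0.164) and without 501548 in Δ*cre1*-91 (0.0692). With the numbers of Δ*cre1*-91 crossed, an alternative chosen after seeing the data, 2, 4, 3 and 0 were called. A fit of only the groups compared is the reported fit for the 4 mutant libraries together.

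The depth limits the laccase-family genes most: 3 counts correspond to between 0.277 and 0.451 CPM in these libraries, and 409847 and 501548 stood at or below 2.77 CPM in every one.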
